A study of Mus musculus with 8 samples.

Results

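Amino acid and peptide transporters are the solute carriers that move free amino acids, short peptides and a few related compounds across cell membranes. The genes were taken by name: Slc1a, Slc3a, Slc6a, Slc7a, Slc15a, Slc36a, Slc38a or Slc43a followed by a digit. This gave 71 of the 34745 genes in the tables. Of these, 67 carry a transporter's name and 4 (Slc36a1os, Slc36a3os, Slc6a19os and Slc7a6os) carry the name of a transporter with the ending "os", which marks a gene on the opposite strand. All 71 are called transporter genes below, and Slc7a6os is the 1 of the 4 that was tested. All 71 were found in GENCODE M21, and 68 were protein coding.

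Crypts, the tubular glands in the wall of the gut, were taken from C57BL/6 mice of WT genotype at day 5 and sequenced as 8 RNA libraries. Mice of the 4 DSS libraries had dextran sulfate sodium, a polymer that damages the lining of the gut and produces colitis, and those of the 4 DSS+CA libraries had DSS together with CA, named in the series title as cholic acid, a primary bile acid. Every library thus carries DSS, and no untreated group was analysed here. The labels name no gut segment, dose, route or age, and do not say whether the libraries of a group come from separate animals, so the p-values speak of the spread among these libraries alone, part of which could be technical.

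In the gut, dietary protein is cut by peptidases into short peptides and amino acids. Carriers in the brush border, the luminal face of absorptive cells, take these up, often coupled to sodium or protons. Carriers in the basolateral membrane pass them on to the blood. Some carriers of both faces are exchangers made of a heavy chain and a light chain of the Slc7 family. The heavy chain, Slc3a1 in the brush border and Slc3a2 in the basolateral membrane, places the complex in the membrane, and the light chain transports. A further set feeds the cell itself, and carriers in lysosomes return amino acids from broken-down protein.

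Of the 71 genes, 27 reached an FPKM of 1 in at least 4 of the 8 libraries and were tested, and 44 were not tested. FPKM, as deposited, is the count scaled to the length of the gene and to the library's total, and is the scale used here to compare genes with each other. Levels of 1 gene between libraries are given as CPM, the count scaled to the library's size by the TMM method. By edgeR's quasi-likelihood test with Benjamini-Hochberg adjustment over the 9913 tested genes, 0 transporter genes were higher and 0 were lower in DSS+CA at an adjusted p of 0.05. The same test called few genes at all: 0.0404% of the tested genes were higher and 0.0908% lower. At an unadjusted p under 0.05 there were 3 transporter genes, Slc7a5, Slc1a4 and Slc7a1, each with the higher mean in DSS+CA, against a background of 7.82% of all tested genes in either direction and 2.97% in that direction. With mean counted gene length as a covariate there were 7, of which 3 were higher (Slc7a5, Slc38a1 and Slc7a1) and 4 lower (Slc7a15, Slc15a1, Slc36a1 and Slc6a20a), against 12.7% and 10.9% of all genes, and 0 passed the adjusted threshold. Log2 fold changes (DSS+CA against DSS) ran from -0.40 to 1.55 with a median of 0.16, and 18 of 27 lay above 0. Over all tested genes the median was 0.02, and 51.9% lay above 0.

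DESeq2 on the same genes called 1 transporter gene higher, Slc7a5, where it called 0.514% of all genes higher and 1.7% lower. So did edgeR without DSS+CA 3, which called 0.192% of all genes higher and 0.656% lower. By limma on log2(FPKM + 1) the count was 0 in both directions.

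**Figure D1:**
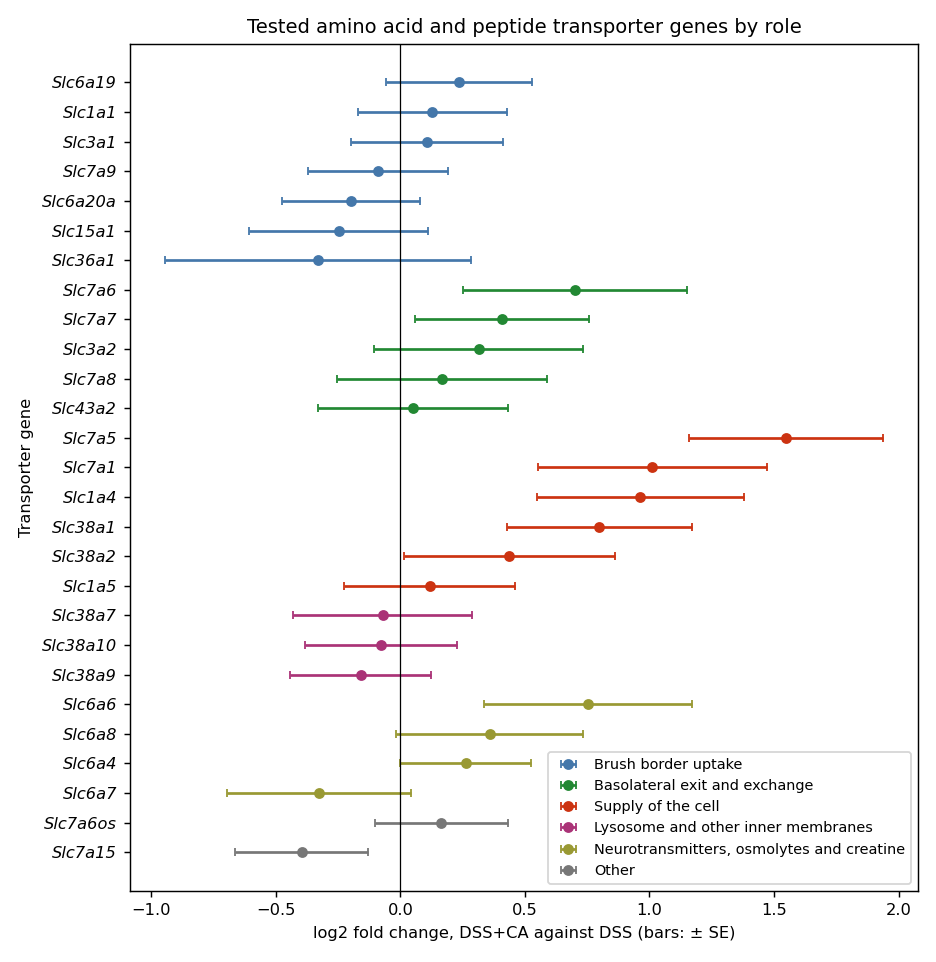
Log2 fold change of DSS+CA against DSS for the 27 tested transporter genes (horizontal axis), grouped by role and coloured by it; points are estimates of edgeR's fit with TMM scaling and bars are ± 1 SE. The 6 genes that supply the cell lie between 0.12 and 1.55, and Slc7a5 lies farthest from 0.

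Levels differed between libraries of the same group, and some also differed between the groups. Total counts ran from 13334012 to 17973196. Mean counted gene length is the mean of gene lengths weighted by FPKM. It was lowest in DSS 2, DSS 3 and DSS+CA 3 (1423, 1448 and 1445 bases), against 1719 to 2412 bases in the others. Mitochondrially encoded transcripts took 20.4% ± 5.10 of counts in DSS and 14.4% ± 4.48 in DSS+CA (SD, n = 4), the most in DSS 2 (27.7%) and in DSS+CA 3 (20.5%). The summed CPM of 7 villus enterocyte markers ran from 17698 to 77709 in DSS and from 20913 to 72495 in DSS+CA. It was highest in DSS 3, DSS 2 and DSS+CA 3, and most of it came from Apoa4 and Apoa1. Single markers were split. Apoa4, Apoa1, Sis, Ada and Fabp1 were the highest of their group in DSS 2 or DSS 3 and in DSS+CA 3. Alpi and Lct were the lowest of their group in DSS 2 and DSS+CA 3. Epithelial markers (Epcam, Krt8, Vil1, Cdh1) summed to 6337 to 7409 CPM in DSS and 5837 to 7496 CPM in DSS+CA. Crypt base markers (Lgr5, Olfm4, Ascl2) summed to 299 to 1368 CPM in DSS and 161 to 513 CPM in DSS+CA, those of small intestine to 5325 or more CPM in every library, and those of colon to at most 16.6 CPM, with Car1 at 0. Markers of T and NK cells summed to 277 to 668 CPM in DSS and 59.8 to 233 CPM in DSS+CA, and all 7 had log2 fold changes below 0, with 1 called. The marker sum of goblet cells (2022 to 2818 against 1129 to 1272 CPM) was likewise lower in every DSS+CA library. So was that of enteroendocrine cells (170 to 275 against 123 to 162 CPM). The same held for B and plasma cells (28.6 to 65.6 against 6.66 to 21.8 CPM), with 0 markers of these lists called. Single markers could differ from their sum. Muc2, Spdef, Chga, Cck, Neurod1 and Jchain, for instance, overlapped between the groups, and Neurod1 had the higher mean in DSS+CA. Paneth cell markers, all 4 below 0 with 0 called (median -1.47), summed to 4729 to 30962 against 3617 to 15200 CPM, tuft cell markers to 16.9 to 33.4 against 12.6 to 20.5 CPM, and myeloid markers to 15.9 to 23.1 against 6.20 to 17.3 CPM. Those of fibroblasts, smooth muscle, endothelium and glia summed to at most 5.79 CPM in any library, with Sox10 and Elavl4 at 0. The part of these shifts in the results on transporters was not tested. Whether fewer cells of a type or less RNA per cell lies behind a lower level in such bulk samples cannot be told apart.

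The transporter genes together took between 0.206% (DSS 2) and 0.654% (DSS+CA 1) of a library's counts, 0.383% ± 0.152 in DSS and 0.493% ± 0.173 in DSS+CA (SD, n = 4 each). The groups overlapped: the lowest library of each, DSS 2 and DSS+CA 3 (0.253%), held a smaller share than all 6 others, and the next lowest was DSS 3 (0.334%). After TMM scaling, DSS 2 was the lowest DSS library in 21 of the 27 tested transporter genes, against 35.3% of all tested genes. DSS+CA 3 was the lowest of its group in 22 of 27, against 46.5% of all tested genes. Both held for 18 of 27 transporter genes and for 31.2% of all genes. The median transporter gene lay 0.63 below its group mean in DSS 2 and 0.53 below it in DSS+CA 3 on the log2(CPM + 1) scale, while the median of all tested genes lay 0.03 and 0.05 below. Slc3a1 and Slc7a6os went the other way, with their highest CPM of each group in these same libraries. On the FPKM scale, where TMM is not applied, Slc3a1 was still the highest of the DSS libraries in DSS 2 (163) but the lowest of its group in DSS+CA 3 (147).

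**Figure D2:**
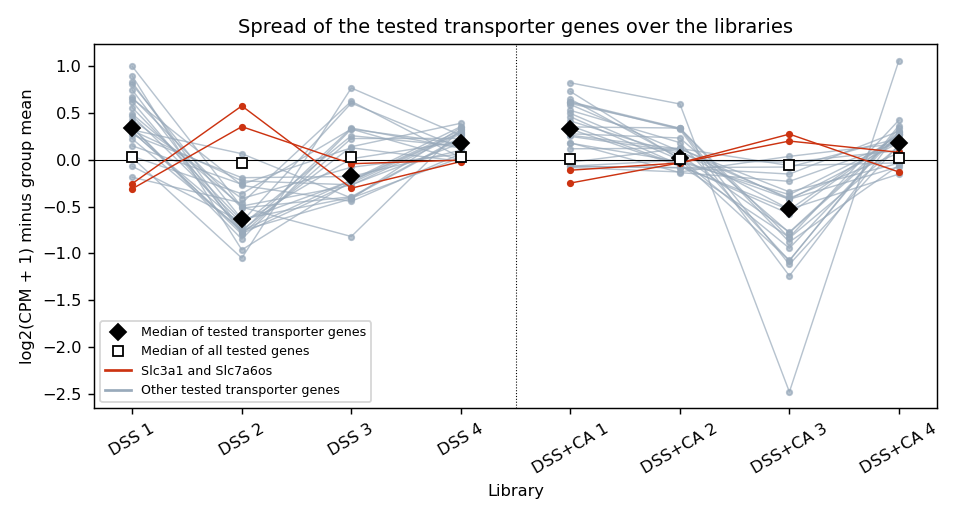
Deviation of each tested transporter gene from its group mean on the log2(CPM + 1) scale (vertical axis) in each library (horizontal axis); lines are the 27 genes, diamonds their median and squares the median of all tested genes. The transporter median is lowest in DSS 2 (-0.63) and DSS+CA 3 (-0.53), and Slc3a1 and Slc7a6os are drawn in a colour of their own, with their highest values there.

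Per length, the brush border carriers led. Slc3a1, the heavy chain of the carrier for cystine and basic amino acids, had the highest mean FPKM over the 8 libraries (159), followed by Slc15a1, the proton-coupled carrier of di- and tripeptides (119), and Slc6a19, the main sodium-coupled carrier of neutral amino acids (92.3). These 3 held between 40.9% and 58.8% of the transporter FPKM of a library. Next came the creatine carrier Slc6a8 (57.9), the basolateral light chains Slc7a7 and Slc7a8 (both 51.4) and Slc7a9, the light chain that pairs with Slc3a1 (41.1). Slc6a20a, a carrier of imino acids such as proline, followed at 35.4, the heavy chain Slc3a2 at 33.8, Slc7a15 at 25.0, the basolateral carrier of large neutral amino acids Slc43a2 at 20.9 and the taurine carrier Slc6a6 at 19.7. The 12 held between 85.8% and 88.9% of the transporter FPKM of a library. The ranges over libraries of neighbours in this order overlapped in every case.

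**Figure D3:**
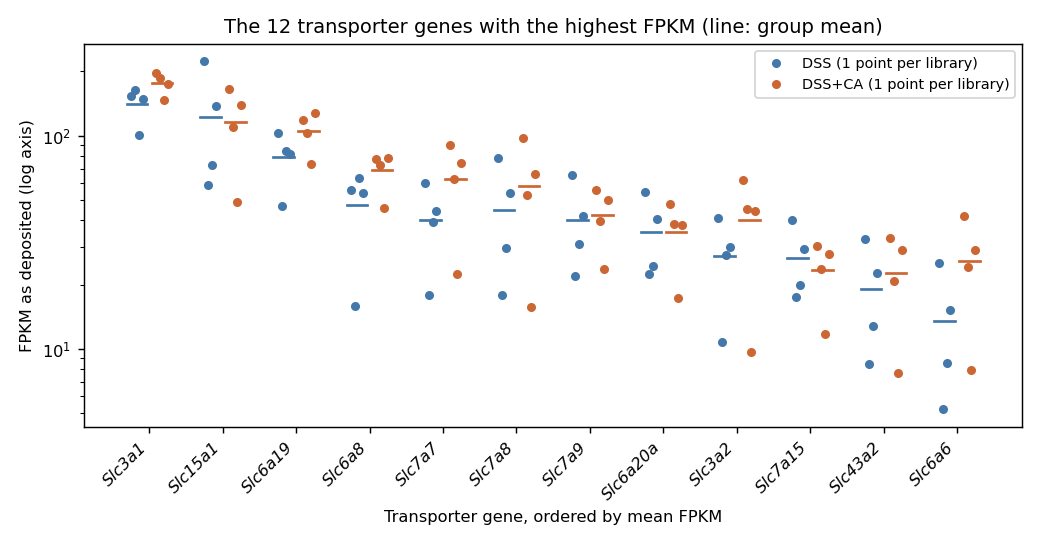
Deposited FPKM (vertical log axis) of the 12 transporter genes with the highest mean, in order of that mean; each point is 1 library and each line a group mean. Slc3a1 leads with group means of 141 and 176, and in all 12 genes the points of DSS and DSS+CA overlap.

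Of the 9 brush border genes 7 were tested, and 3 of the 7 had log2 fold changes above 0, with a median of -0.09; between 2 and 6 lay above 0 over the alternative settings. Slc3a1 (chromosome 17, 85028347 to 85064243, plus strand) stood at 290, 516, 280 and 341 CPM in DSS 1 to 4 and at 354, 373, 462 and 349 CPM in DSS+CA 1 to 4. The groups overlapped, with 1 DSS library above all of DSS+CA, and the log2 fold change was 0.11 (SE 0.305, adjusted p = 0.999). The SE was derived from the test, as the size of the log2 fold change over the root of edgeR's F statistic. Slc3a1 shares 601 exonic bases with Prepl on the opposite strand, and since the strand setting of the counts is not given in the sources used here, reads from there cannot be told apart.

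Slc15a1 (chromosome 14, 121459621 to 121505254, minus strand) read 573, 252, 274 and 427 CPM in DSS and 402, 299, 208 and 377 CPM in DSS+CA. Its highest and its second-lowest libraries were both DSS (log2 fold change -0.25, SE 0.359, adjusted p = 0.987). Slc6a19 (chromosome 13, 73679745 to 73704865, minus strand) read 707, 535, 865 and 687 CPM in DSS and 774, 749, 840 and 926 CPM in DSS+CA. All 4 DSS+CA libraries lay above 3 of the 4 DSS libraries, and DSS 3 fell among them (0.24, SE 0.293, adjusted p = 0.970). Slc7a9 (chromosome 7, 35448796 to 35466036) averaged 151 ± 37.0 CPM in DSS and 142 ± 21.1 CPM in DSS+CA (SD, n = 4; log2 fold change -0.09).

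Slc36a1, a proton-coupled carrier of small amino acids also found in lysosomes, was set apart by 1 library. It read 170, 56.1, 71.4 and 122 CPM in DSS and 107, 91.0, 9.92 and 126 CPM in DSS+CA (chromosome 11, 55204350 to 55236330). DSS+CA 3 was about an order of magnitude below the other libraries of its group, and the rest of the values overlapped. Its log2 fold change of -0.33 (SE 0.613, adjusted p = 0.996) became 0.040 without that library, 0.0052 without DSS 1 and -1.28 with mean counted gene length as a covariate (adjusted p = 0.133). Slc1a1, the carrier of glutamate and aspartate, averaged 37.6 ± 11.6 CPM in DSS and 41.1 ± 4.72 CPM in DSS+CA (log2 fold change 0.13); it shares 2631 exonic bases with 4430402I18Rik on the opposite strand. Slc6a20a averaged 120 ± 24.3 and 105 ± 19.3 CPM (-0.20), and reads of it and its close copy Slc6a20b, which lies 3557 bases away, may be split uncertainly; Slc6a20b had 99 counts in all.

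Slc6a14, a sodium- and chloride-coupled carrier of neutral and basic amino acids, was under the FPKM minimum with 276 counts in all (chromosome X, 21714896 to 21742355). It read 4.45, 0.381, 4.11 and 2.82 CPM in DSS and 0.264, 0.569, 6.34 and 0.981 CPM in DSS+CA. DSS+CA 3 was the highest of all libraries, while the other 3 DSS+CA libraries lay below every DSS library except DSS 2. With no filter on low values, edgeR gave a log2 fold change of -0.54 (adjusted p = 0.846 over 19457 genes). The value moved most with DSS+CA 3: it was -2.20 without that library (adjusted p = 0.0970) and between -0.90 and -0.15 without any other single one. Without DSS 2, DSS 3 and DSS+CA 3 it was -2.51 (adjusted p = 0.00372), a setting added after the data were seen, which called 5.37% of all genes lower and 3.69% higher. With the FPKM filter, the same omission called 4.25% lower and 2.36% higher.

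All 5 tested basolateral genes had log2 fold changes above 0, with a median of 0.31 and 0 called. Between 2 and 5 lay above 0 over the alternative settings, the fewest with mean counted gene length as a covariate, where Slc3a2, Slc7a8 and Slc43a2 lay below. Slc3a2 (chromosome 19, 8706882 to 8723369, minus strand), the heavy chain shared by the Slc7 exchangers below, read 225, 97.7, 222 and 199 CPM in DSS and 320, 261, 87.6 and 257 CPM in DSS+CA. In 3 DSS+CA libraries it was above all DSS libraries, and in DSS+CA 3 below all of them (0.31, SE 0.419, adjusted p = 0.979). Slc7a7, the light chain for basic amino acids (chromosome 14, 54369442 to 54417780), read 226, 113, 221 and 204 CPM in DSS and 323, 252, 141 and 298 CPM in DSS+CA. It had the same arrangement apart from DSS 2, which was the lowest of all (0.41, SE 0.349, adjusted p = 0.923); it shares 232 exonic bases with Oxa1l on the opposite strand.

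Slc7a8, the light chain for neutral amino acids, averaged 180 ± 71.6 CPM in DSS and 202 ± 91.5 CPM in DSS+CA (log2 fold change 0.17). Slc43a2 averaged 348 ± 124 and 360 ± 130 CPM (0.05), differences well inside the spread between libraries. Slc7a6, a low light chain for basic amino acids, averaged 4.25 ± 1.64 and 6.91 ± 3.11 CPM (0.70, SE 0.449, adjusted p = 0.849).

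The genes that supply the cell itself had the highest median log2 fold change of the roles. All 6 tested genes of this role (of 12) had log2 fold changes above 0, with a median of 0.88 and 0 called by edgeR (Slc7a5 by DESeq2, below); 5 or 6 lay above 0 over the alternative settings, Slc1a5 being the exception. Their summed FPKM with the 6 untested ones was 50.5, 11.1, 15.7 and 28.8 in DSS 1 to 4 and 69.7, 50.0, 17.3 and 44.7 in DSS+CA 1 to 4. The groups overlapped in this sum, since DSS 1 was above 3 of the DSS+CA libraries.

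Slc7a5 (ENSMUSG00000040010, chromosome 8, 121881150 to 121907694, minus strand), the light chain that exchanges leucine and other large neutral amino acids, read 7.99, 3.28, 8.22 and 6.93 CPM in DSS 1 to 4 and 23.6, 23.4, 9.82 and 20.3 CPM in DSS+CA 1 to 4. Every DSS+CA library was above every DSS library, with DSS+CA 3 closest to DSS. It was the 1 tested transporter gene of 27 whose groups did not overlap, against 6.05% of all tested genes. On the deposited FPKM scale, which has no TMM scaling, DSS+CA 3 (1.67) fell below DSS 1 (2.25). These values rest on 131, 43, 108 and 123 reads counted in DSS and on 447, 370, 96 and 373 in DSS+CA.

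The log2 fold change of Slc7a5 was 1.55 (2.92-fold, SE 0.390), with an unadjusted p of 0.00208 and an adjusted p of 0.159 by edgeR's quasi-likelihood test, which misses the threshold. Leaving out single libraries moved it between 1.33 and 1.76, and the adjusted p lay between 0.0120 and 0.508 over all settings. It was called by DESeq2 (adjusted p = 0.0120), by edgeR without DSS+CA 3 (adjusted p = 0.0461) and by edgeR without DSS 2, DSS 3 and DSS+CA 3 (adjusted p = 0.0137, with 2.36% of all genes called higher). The marker sums of T and NK, goblet, enteroendocrine, and B and plasma cells, given above, were lower in DSS+CA. Any link of these sums to the level of Slc7a5 was not tested.

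Slc1a4, a sodium-coupled exchanger of alanine, serine and cysteine (chromosome 11, 20302180 to 20332713, minus strand), read 8.05, 3.13, 7.38 and 7.38 CPM in DSS and 18.3, 15.1, 5.93 and 11.2 CPM in DSS+CA. In DSS+CA, 3 libraries stood above all DSS libraries, and DSS+CA 3 below all but DSS 2. The log2 fold change was 0.96 (SE 0.415, adjusted p = 0.592). Slc7a1, a carrier of arginine and lysine (chromosome 5, 148327410 to 148399904, minus strand), read 65.3, 17.3, 29.4 and 42.8 CPM in DSS and 110, 90.3, 32.3 and 79.7 CPM in DSS+CA. The arrangement was like that of Slc1a4, with DSS+CA 3 among the DSS libraries (1.01, SE 0.458, adjusted p = 0.636).

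The glutamine carriers Slc38a1 and Slc38a2 lie 44481 bases apart on chromosome 15. Slc38a1 read 43.3, 15.3, 18.2 and 28.7 CPM in DSS and 63.4, 44.7, 33.1 and 42.5 CPM in DSS+CA. The groups overlapped through DSS 1 alone (log2 fold change 0.80, SE 0.370, adjusted p = 0.651). Slc38a2 averaged 50.9 ± 29.8 and 69.0 ± 23.2 CPM (0.44), and its highest DSS library, at 90.7, was above all but 1 of DSS+CA. Slc1a5, the exchanger of glutamine and other neutral amino acids, read 57.0, 25.2, 41.2 and 47.0 CPM in DSS and 53.8, 52.1, 25.4 and 53.4 CPM in DSS+CA. Each group had 1 low library, and the log2 fold change was 0.12 (SE 0.343, adjusted p = 0.999).

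Slc7a11, the light chain of the cystine and glutamate exchanger, was under the FPKM minimum with 196 counts in all (chromosome 3, 49892526 to 50443614, minus strand). Libraries DSS 1 to 4 had 19, 5, 2 and 5 counts, and DSS+CA 1 to 4 had 14, 51, 42 and 58, which is 1.16, 0.381, 0.152 and 0.282 CPM against 0.740, 3.23, 4.29 and 3.16 CPM. The groups overlapped only through DSS 1 and DSS+CA 1, and DSS+CA 3 was here the highest library and not the lowest. With no filter, the log2 fold change was 2.56 (SE 0.667, adjusted p = 0.100 by edgeR over 19457 genes, of which 0.0925% were called higher and 0.314% lower). By the same test it was 3.40 without DSS 1 (adjusted p = 0.0250) and 2.88 without DSS+CA 1 (adjusted p = 0.0454). With any other single library left out, Slc7a11 missed the threshold. These fits were added after the data were seen, and the calls came only without a library through which the groups overlapped. The share of all genes called in them is not given here.

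**Figure D4:**
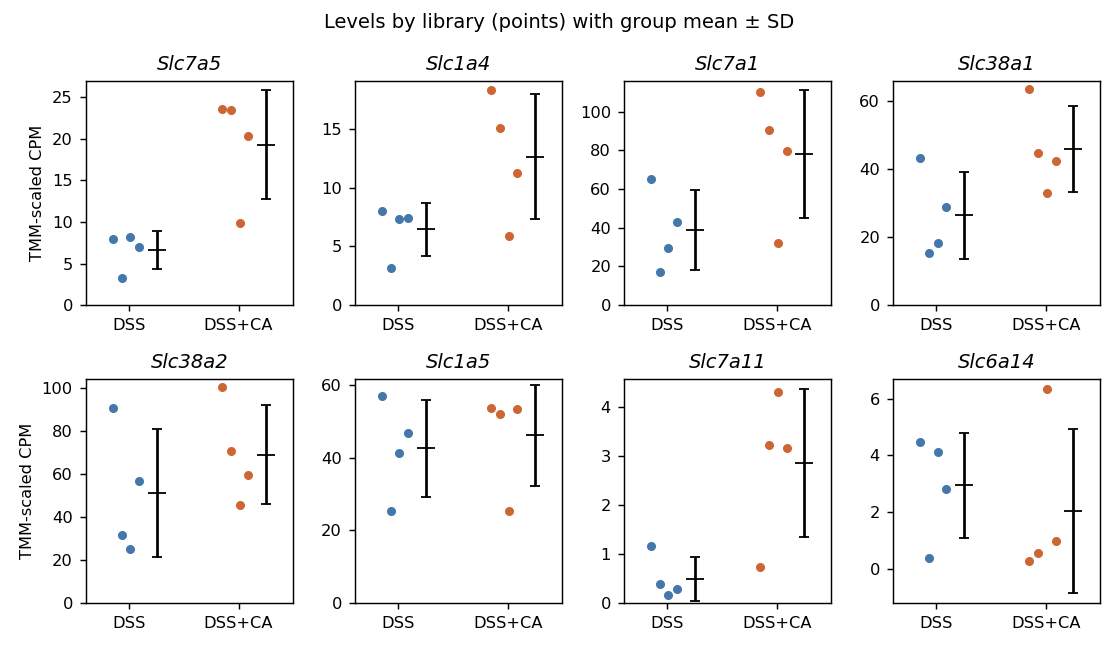
TMM-scaled CPM (vertical axes, each gene on its own scale) of 7 genes that supply the cell and of Slc6a14, by group (horizontal axis); points are libraries in order 1 to 4 from the left, bars are the group mean ± SD, n = 4. Slc7a5 shows DSS+CA between 9.82 and 23.6 and DSS between 3.28 and 8.22; the axis of Slc6a14 passes below 0 only to show its SD bar.

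Several of these genes are known targets of ATF4, a transcription factor of amino acid shortage that binds a short element of the form TGATGNAAN. The promoters given by RefSeq (GRCm38.p6, 250 bases before to 50 after the start site) were searched for these letters on both strands, with N as any base. A promoter was found for 52 of the 71 genes and 21 of the 27 tested ones; Slc7a5, Slc38a1 and Slc1a5 had none and were not searched. Of the 52, 4 (7.69%) held a match, Slc7a11, Slc1a4, Slc7a7 and Slc15a5, against 4.5% of all 27025 genes with a promoter. Slc7a11, Slc1a4 and Slc7a7 are shown because they are the transporters with both a match and values given above; the match is in capitals, and on the minus-strand matches it reads as its reverse complement. All are written 5′ to 3′ along the gene's strand (minus), with positions counted from the start site.
Slc7a11, chr3:50443637-50443696, from -83 to -24: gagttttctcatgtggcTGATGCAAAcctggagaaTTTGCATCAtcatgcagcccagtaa
Slc1a4, chr11:20332700-20332729, from -16 to 14: gtgcctcctgcGTTGCATCAtctccagcct
Slc7a7, chr14:54418067-54418096, from -152 to -123: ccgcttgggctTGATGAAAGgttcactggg
Slc7a7, chr14:54417927-54417956, from -12 to 18: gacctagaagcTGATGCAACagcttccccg
Slc7a11 held 1 match on the gene's own strand, at -66 to -58, and 1 on the other, at -48 to -40. The match of Slc1a4 covers its start site. Slc7a7 has 2 start sites in the table, and positions above are from the first; its second match covers that one and lies at -243 to -235 from the other. A match is a description of letters only. Slc1a4 and Slc7a7 were not called by the main test, and Slc7a11 was too low to enter it.

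The heavy and light chains were also compared within each library, where scaling between libraries plays no part. The FPKM of Slc3a2 divided by that of Slc7a5 was 18.3, 19.3, 17.5 and 18.6 in DSS 1 to 4 and 8.78, 7.23, 5.79 and 8.19 in DSS+CA 1 to 4. The groups stood well apart, at 18.4 ± 0.750 and 7.50 ± 1.30 (SD, n = 4), and DSS+CA 3, which was low in both genes, had the lowest ratio of all. The difference was -1.31 on the log2 scale. An exact two-sided permutation test over the 70 assignments of libraries gave p = 0.0286, the smallest it can give. After Benjamini-Hochberg adjustment over the 5 chain pairs compared, this was 0.0714. Any pair whose groups do not overlap gives the same p. The ratios were not among the planned comparisons. This one shares the Slc7a5 values given above, so the test is no separate support for their difference. Leaving out single libraries, or DSS 2, DSS 3 and DSS+CA 3 together, moved the log2 difference between -1.40 and -1.20.

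**Figure D5:**
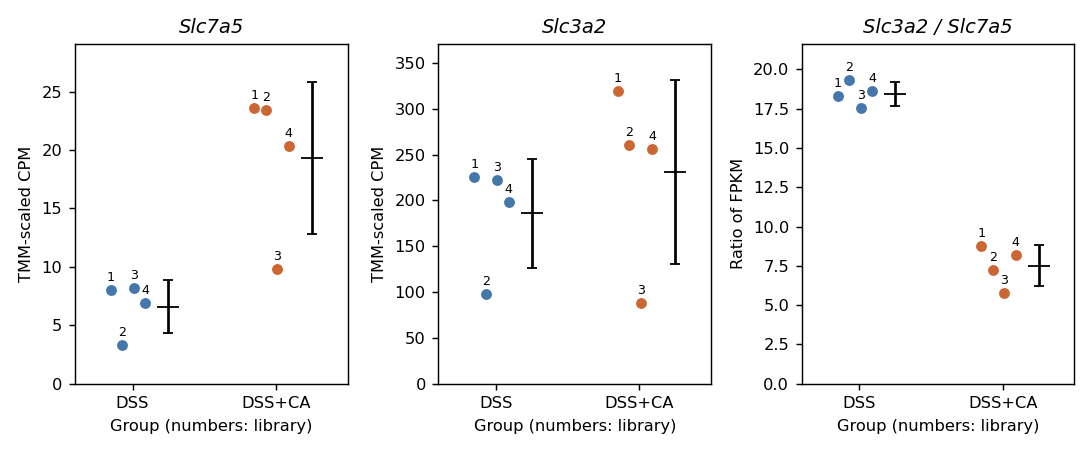
TMM-scaled CPM of Slc7a5 and of Slc3a2 and the ratio of their FPKM, Slc3a2 over Slc7a5 (vertical axes), by group (horizontal axis); points are libraries with their number, bars the mean ± SD, n = 4. The ratio lies between 17.5 and 19.3 in DSS and between 5.79 and 8.78 in DSS+CA, while Slc3a2 alone overlaps.

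Of the other pairs, Slc3a2 to Slc7a6 was 20.7, 21.2, 39.0 and 21.8 in DSS and 18.9, 20.1, 20.1 and 17.2 in DSS+CA. These groups did not overlap either, by a small margin (log2 difference -0.38, exact permutation p = 0.0286, adjusted 0.0714). The Slc7a6 counts under this ratio were low, 100, 34, 42 and 91 in DSS and 180, 115, 24 and 154 in DSS+CA. Slc3a2 to Slc7a7 (0.666 ± 0.0459 against 0.609 ± 0.130), Slc3a2 to Slc7a8 (0.654 ± 0.187 against 0.696 ± 0.113) and Slc3a1 to Slc7a9 (4.14 ± 2.28 against 4.48 ± 1.26) overlapped, with exact permutation p-values of 0.571, 0.543 and 0.629. Slc7a5 divided by each of the 26 other tested genes of the set, Slc7a6os among them, gave groups without overlap in 18, against 41.6% of the 9849 other genes with counts in all libraries; these ratios all share Slc7a5.

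Carriers of inner membranes differed little between the groups. The 3 tested genes, Slc38a7, Slc38a10 and Slc38a9, a lysosomal sensor of arginine, had log2 fold changes of -0.07, -0.08 and -0.16; 2 of the 3 lay above 0 without DSS 3 or without DSS+CA 3, and all 3 by limma on FPKM. Slc38a9 averaged 10.2 ± 2.23 CPM in DSS and 9.12 ± 0.590 CPM in DSS+CA. Slc15a4, a lysosomal carrier of histidine and peptides, had 858 counts in all, the most of the untested genes, and a mean FPKM of 0.764.

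Of carriers named for neurotransmitters, osmolytes and creatine, 4 of 19 were tested and 3 of the 4 lay above 0. Slc6a6 (chromosome 6, 91684053 to 91759066) read 224, 76.9, 112 and 164 CPM in DSS and 353, 228, 117 and 274 CPM in DSS+CA. In 3 DSS+CA libraries it was above every DSS library, and DSS+CA 3 lay among them (0.75, SE 0.418, adjusted p = 0.756). Slc6a8 (chromosome X, 73673150 to 73682502) read 451, 214, 757 and 533 CPM in DSS and 597, 624, 615 and 671 CPM in DSS+CA. The DSS+CA libraries were close together and the DSS libraries spread to both sides of them (0.36, SE 0.375, adjusted p = 0.959). Slc6a4, the serotonin carrier, averaged 67.1 ± 8.55 and 80.4 ± 14.5 CPM (0.26), and Slc6a7, the proline carrier, 5.18 ± 2.21 and 4.13 ± 0.781 CPM (-0.33).

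Slc1a3, a carrier of glutamate, was below the FPKM minimum but did not overlap between the groups. It read 7.07, 5.64, 3.42 and 6.82 CPM in DSS and 3.28, 2.78, 3.37 and 3.27 CPM in DSS+CA. All DSS+CA libraries were below all DSS libraries, DSS 3 by a narrow margin. The log2 fold change with no filter was -0.78 (SE 0.396, adjusted p = 0.579 by edgeR), and -1.09 without DSS 2, DSS 3 and DSS+CA 3 (adjusted p = 0.0269), the setting added after the data were seen in which 5.37% of all genes were called lower. Of the 61 transporter genes with a count, 2 did not overlap, against 5.67% of the 19457 genes with a count.

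Among the 2 tested genes with no role assigned, Slc7a15, a member of the Slc7 family, had the lowest log2 fold change of the 27. It read 131, 95.4, 96.3 and 117 CPM in DSS and 93.6, 81.5, 63.6 and 96.0 CPM in DSS+CA. The groups overlapped narrowly, with 3 DSS+CA libraries below all DSS ones (-0.40, SE 0.267, adjusted p = 0.869). Slc7a6os averaged 23.4 ± 4.70 and 26.2 ± 3.52 CPM (0.16).

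Of the 44 untested genes, 10 had 0 counts in all 8 libraries, which allows up to 3 counts over them: Slc1a6, Slc36a2, Slc6a11, Slc6a15, Slc6a16, Slc6a17, Slc6a5, Slc7a10, Slc7a12 and Slc7a13. Another 21 had between 1 and 99 counts, and 13 had 100 or more. Transporter genes that lie side by side often differed in level. Slc6a18 (0.543 FPKM) lies 1722 bases from Slc6a19 (92.3), Slc6a20b (0.0897) next to Slc6a20a (35.4), and Slc36a2 (0) and Slc36a3 (0.00532) beside Slc36a1 (14.0).

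Other genes of amino acid handling were read from the same fit. Of 52 tested, edgeR called 0 in either direction, with 5 at an unadjusted p under 0.05 (Mep1a, Pdzk1, Slc25a12, Sesn1 and Rragd), where 7.82% of all genes were. DESeq2 called 0 higher and 2 lower (Mep1a and Sesn1), against 0.514% and 1.7% of all genes. Dpp3, Castor1 and Castor2 were not matched by symbol. Of 13 tested brush border peptidases, 1 lay above 0, with a median log2 fold change of -0.41; between 1 and 4 lay above 0 over the alternative settings. Mep1a, a subunit of the metalloprotease meprin, averaged 449 ± 181 CPM in DSS and 151 ± 89.9 CPM in DSS+CA (-1.57, SE 0.445, adjusted p = 0.228), with DSS 3 below DSS+CA 3. Mep1a was also called lower without DSS+CA 3, where 0.656% of all genes were called lower. With mean counted gene length as a covariate it was called lower with Naaladl1, as were 324 of the 9913 tested genes. Without DSS 2, DSS 3 and DSS+CA 3, Mep1a, Pdzk1 and Sesn1 were called lower and Rragd higher. That setting called 4.25% of all genes lower and 2.36% higher. Mep1b, the other subunit, averaged 1077 ± 357 and 789 ± 36.4 CPM (-0.45). Of cytosolic peptidases 3 of 7 lay above 0 (median -0.09, and 0.11 by limma on FPKM; Pepd -0.43 and Cndp2 -0.45).

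Of partners of the transporters and other carriers in the cell surface, 4 of 8 lay above 0 (median -0.03, and 0.15 by limma on FPKM). Pdzk1, a scaffold protein beneath the brush border, averaged 307 ± 100 CPM in DSS and 158 ± 21.7 CPM in DSS+CA, with groups that did not overlap (-0.96, SE 0.308, adjusted p = 0.327). Arl6ip5, which acts on glutamate carriers, did not overlap either, at 28.0 ± 2.31 and 35.4 ± 1.98 CPM (0.34, adjusted p = 0.878). Over all tested genes, the groups did not overlap in 6.05%. Mitochondrial amino acid carriers had 4 of 8 above 0 (median 0.00), with Slc25a12, a carrier of aspartate and glutamate, at 7.10 ± 2.48 and 12.7 ± 2.16 CPM (0.84, adjusted p = 0.504) and Slc25a44 at -0.36.

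Of amino acid sensing genes, 11 of 17 lay above 0 (median 0.04). Sesn1, which restrains the growth kinase complex mTORC1 and is of the sestrin family of leucine sensors, read 90.1, 264, 58.4 and 121 CPM in DSS and 32.3, 37.0, 53.9 and 41.7 CPM in DSS+CA. The groups did not overlap (-1.70, SE 0.442, adjusted p = 0.173), which held for 6.05% of all tested genes. Rragd, a GTPase that brings that complex to lysosomes, read 21.2, 62.9, 22.7 and 20.4 CPM in DSS and 71.3, 63.4, 64.4 and 61.5 CPM in DSS+CA. Here DSS 2 alone lay among the DSS+CA libraries (1.04, SE 0.389, adjusted p = 0.465).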

How the data were processed

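Crypt RNA of 4 DSS and 4 DSS+CA libraries was sequenced, with 200 ng of total RNA per TruSeq Stranded Total RNA library per the labels' protocols. Each deposited table holds a raw count and an FPKM value for 34745 genes, per the file headers. HISAT2, StringTie, GRCm38 and mm10 are named in the submitters' processing notes; for the count column, its tool, annotation and strandedness were not given in the sources used here. In the deposited tables, FPKM equalled the count over a fixed gene length and the library's total count, within 1% for all 17718 genes counted in at least 2 libraries. Coordinates are those of the tables (GRCm38).

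Genes with a deposited FPKM of at least 1 in at least 4 of 8 libraries (9913) were tested with edgeR 4.0.16 (R 4.3.3): quasi-likelihood, TMM, group as the only term, two-sided, Benjamini-Hochberg over all of them, threshold 0.05. Total counts were 13334012 to 17973196 per library, and the common biological coefficient of variation was 0.416. Ratios of FPKM were compared by exact permutation over samples. Alternatives were RLE scaling, DESeq2 1.42.0, limma 3.58.1 (trend) on log2(FPKM + 1), other filters, leaving out libraries, a replicate block and mean counted gene length as a covariate. The fit was tested on simulated data. Exons and strands came from GENCODE M21 and promoters from RefSeq (GRCm38.p6). Tables were read with Python 3.11.15, pandas 2.3.3 and numpy 2.4.6, and figures drawn with matplotlib 3.10.9.

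The members, roles and lists were chosen with earlier results of these data known. Genes are named with values where the unadjusted p is under 0.05, the groups do not overlap, the mean FPKM is among the 12 highest, or they stand on a list of 20 carriers named whatever their values; of the other pathways, the 2 genes with the smallest p per list are named. Slc7a6, Slc6a4, Slc6a7, Slc7a6os, Slc38a7, Slc38a10, Slc15a4 and the side-by-side genes were named after their values were seen. The chain ratios, and the fits with no filter that leave out libraries, were not among the planned comparisons.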

Additional observations from a re-analysis of the deposited data

Results flagged for a closer look

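In each group of 4 libraries, a single library that stood far from the other 3 was looked for in the 24 named transporter genes, with Dixon's ratio of gap to range above its 95% critical value. Of 48 groups tested, 4 had such a library, and chance gives about 1 in 20. Slc6a14 was at 6.34 CPM in DSS+CA 3, with the other DSS+CA libraries between 0.264 and 0.981. Slc1a5 was at 25.4 CPM in DSS+CA 3, with the others between 52.1 and 53.8. Slc1a4 was at 3.13 CPM in DSS 2, with the others between 7.38 and 8.05. Slc1a1 was at 48.2 CPM in DSS+CA 4, with the others between 38.6 and 38.9.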

How the results depend on the processing

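The count of transporter genes called was 0 higher under edgeR and 1 higher (Slc7a5) under DESeq2 and without the 3 libraries of lowest mean counted gene length; leaving out each library gave 0 to 1. It was 0 lower under all of these. With no filter and without the 3 libraries, a setting added after the data were seen, 3 of 61 were higher (Slc7a5, Slc1a4, Slc7a1) and 2 lower (Slc6a14, Slc1a3), where 3.69% and 5.37% of all genes were. Between 14 and 21 of the 27 lay above 0 with each library left out, and 32 of 61 with no filter. The labels do not say whether the replicate numbers pair the libraries. Deviations of same-numbered ones correlated at 0.75, -0.34, 0.11 and 0.20, and those of DSS 2 and DSS+CA 3 at 0.73. Such correlations cannot tell whether same-numbered libraries share a litter, day or batch. With a replicate block, 0 transporter genes were called in either direction. Over all genes, counts higher and lower were 4 and 9 in the main fit, 14 and 51 with the replicate block, 7 and 20 with RLE, 51 and 169 with DESeq2, 9 and 17 with limma on FPKM, 18 and 61 with no filter, 294 and 324 with mean counted gene length as a covariate, and 234 and 421 without the 3 libraries. Leaving out each library gave 0 to 19 higher and 4 to 65 lower, the most without DSS+CA 3.

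Of 363 values for the 24 named genes under alternatives, 334 kept direction and side of the threshold, 7 came to pass it and 22 changed sign, in 9 genes. Single libraries left out moved Slc15a1 from -0.40 to 0.016 and Slc7a9 from -0.21 to 0.072 (sign changed without DSS 1), Slc1a1 from -0.070 to 0.21 and Slc1a5 from -0.067 to 0.32 (without DSS 2), and Slc36a1 from -0.60 to 0.040 (without DSS 1 or DSS+CA 3). Slc43a2 moved from -0.13 to 0.26 (without DSS 2, DSS 3, DSS+CA 1 or DSS+CA 4) and Slc7a8 from -0.10 to 0.42 (without DSS 2 or DSS+CA 1). Without the 3 libraries, log2 fold changes were -0.13 for Slc1a1, -0.0015 for Slc1a5, -0.14 for Slc43a2 and -0.015 for Slc7a8. With the covariate they were -0.20 for Slc1a5, -0.17 for Slc3a2, -0.32 for Slc43a2 and -0.35 for Slc7a8. By limma on FPKM they were 0.019 for Slc38a9 and 0.12 for Slc7a9; this setting, which changes both scale and test, had a median over all genes of 0.17 against 0.02. The cause of these shifts was not tested. Low counts limit Slc7a11, Slc6a14 and Slc1a3, whose values rest on 196, 276 and 555 counts.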

Other observations

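Slc43a3, which lies 72985 bases from Slc43a1, had 82 counts in all and was noticed after its values were seen. It read 0.305, 1.45, 0.989 and 1.75 CPM in DSS 1 to 4 and 0.158, 0.569, 0 and 0.109 CPM in DSS+CA 1 to 4. The groups overlapped through DSS 1 and DSS+CA 2 (log2 fold change -2.26 with no filter, SE 0.854, adjusted p = 0.360 by edgeR).

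By family, the summed FPKM of the Slc7 genes was 172 ± 76.5 in DSS and 220 ± 93.7 in DSS+CA (SD, n = 4), that of the Slc6 genes 190 ± 67.2 and 255 ± 69.1, and that of the Slc38 genes 25.8 ± 13.3 and 35.5 ± 15.5. The Slc15 and Slc36 sums lay at 124 ± 75.0 and 117 ± 50.4, and at 15.2 ± 10.4 and 13.9 ± 8.86. The Slc1 sums ran from 5.22 to 18.4 in DSS and from 6.94 to 19.8 in DSS+CA, and the Slc43 sums lay at 19.4 ± 10.8 and 22.8 ± 11.3. In these 7 families the difference was smaller than 1 SD of either group. The Slc3 sum, 168 ± 28.5 in DSS and 216 ± 43.3 in DSS+CA, differed by more than the SD of either group, and the libraries overlapped, from 128 to 194 against 157 to 259.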
